A study of Mus musculus with 45 samples.

Results

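Among genes that are not part of the clock, 9 that lie at or nearest to strong chromatin sites of REV-ERBα in mouse liver are described: 1700010I14Rik, Gfod1, Nolc1, Arid3a, Rpa1, Rnase10, Ust, Cmtm7 and Ppp2r5c, of 21631 annotated as protein-coding on the autosomes and the X chromosome. They were chosen by the fold of a peak over its local background, as genes nearest to the 15 peaks of highest fold at zeitgeber time 10 (ZT10, hour 10 of the light-dark cycle) or the 10 of highest fold at ZT22, so their folds and widths are a description and carry no test. Other genes at such peaks are not included, among them Il12b, Loxl4, Irs2 and Pdcl3 at ZT10. At ZT22 those left out include Zdhhc25, with a fold of 29.85, and Dop1b, Sbk1 and Adra1b. Every peak whose summit lies inside one of the genes or within 150 kb of its span was taken, which gave 120 of the 27929 ZT10 peaks and 5 of the 36 ZT22 peaks. The last gene taken at ZT10 was Cmtm7 with a fold of 56.46, and the next peak down, nearest Adcy1, had 56.24. Ppp2r5c stood 18th at ZT10 and was taken for the fifth highest fold at ZT22, where the last peak taken had 7.17 and the next 6.54.

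Chromatin immunoprecipitation with sequencing was done on livers of mice homozygous for REV-ERBα with a 3HA epitope tag (genotype REV-ERBa3HA/3HA), with anti-HA beads and no AAV vector, at ZT10 and at ZT22. Each time has 4 samples, and the authors pooled them into 1 peak list, so no value has a spread between replicates and no p-value between the times was computed. Age and sex are not stated in the labels, and the signal from untagged liver was not analysed here, so the part of the tag or the beads in any site was not tested. Fragments at a summit were worked out from the fold and the p-value of the same peak, and their 95% Poisson intervals cover counting error only. Where a count could be solved, which was not so for 0.0107% of ZT10 and 5.56% of ZT22 peaks, summits held 83 to 3321 fragments at ZT10 and 82 to 1808 at ZT22, and the depth of the ZT22 pool came to 0.97 of the ZT10 pool on the assumption of 1 common control.

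REV-ERBα is a heme-binding nuclear receptor that lacks the activation helix of its relatives. It binds DNA at elements built on the core AGGTCA, competes there with the activating ROR receptors, and recruits the NCOR-HDAC3 corepressor to shut genes down. In liver its protein is high late in the light phase and low late in the dark phase, and it is best known there for repressing clock and lipid genes. The 9 genes have unlike roles. Nolc1 encodes a phosphoprotein of the nucleolus and Cajal bodies that serves ribosome production. Rpa1 encodes the large subunit of replication protein A, which coats single-stranded DNA. Arid3a encodes a DNA-binding protein with an AT-rich interaction domain, and Ppp2r5c a regulatory subunit of protein phosphatase 2A. Ust encodes a sulfotransferase of chondroitin and dermatan sulfate, Rnase10 a member of the ribonuclease A family, Cmtm7 a membrane protein with a MARVEL domain, and Gfod1 a protein named for an oxidoreductase domain. 1700010I14Rik is named after a RIKEN cDNA clone.

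Promoter windows of 300 bases (250 before to 50 after a start) were taken from a RefSeq set (GRCm38.p6, the coordinates of mm10). The set listed starts for 7 of the 9 genes, with 2 each for Rnase10 and Ppp2r5c, and so 9 windows. Gfod1 and Arid3a were not in this set, although their gene spans are in RefSeq. A ZT10 peak overlapped 6 of these 9 windows by at least 1 bp, at 5 genes. The share of all promoter windows under a ZT10 peak was not computed, so nothing is read from this count. The 4 windows below are shown because binding data bear on them: that of 1700010I14Rik has a ZT22 peak of its own, those of Rpa1 and of the inner start of Ppp2r5c hold a ZT10 summit, and that of Rnase10 lies under its second strongest site. Capitals mark matches, on either strand, to the core AGGTCA or to the E-box CACGTG, the site of the clock activators.
1700010I14Rik, plus strand, chr17:8988083-8988382: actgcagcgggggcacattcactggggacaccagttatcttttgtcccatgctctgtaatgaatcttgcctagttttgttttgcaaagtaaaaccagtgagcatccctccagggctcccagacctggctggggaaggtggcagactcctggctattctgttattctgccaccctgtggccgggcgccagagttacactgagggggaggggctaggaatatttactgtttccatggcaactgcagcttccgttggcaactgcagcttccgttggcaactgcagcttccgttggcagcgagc
Rnase10, outer start, plus strand, chr14:51007501-51007800: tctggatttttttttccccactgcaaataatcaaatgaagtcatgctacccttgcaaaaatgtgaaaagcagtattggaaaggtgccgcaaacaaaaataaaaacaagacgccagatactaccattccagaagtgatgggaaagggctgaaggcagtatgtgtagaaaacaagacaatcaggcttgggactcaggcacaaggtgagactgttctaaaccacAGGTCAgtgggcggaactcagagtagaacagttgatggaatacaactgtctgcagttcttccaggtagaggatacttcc
Rpa1, minus strand, chr11:75348334-75348633: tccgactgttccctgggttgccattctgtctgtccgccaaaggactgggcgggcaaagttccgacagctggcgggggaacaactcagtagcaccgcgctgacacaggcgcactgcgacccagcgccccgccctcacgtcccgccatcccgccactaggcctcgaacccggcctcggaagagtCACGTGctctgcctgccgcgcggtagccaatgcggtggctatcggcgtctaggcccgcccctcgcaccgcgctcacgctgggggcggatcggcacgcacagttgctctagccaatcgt
Ppp2r5c, inner start, plus strand, chr12:110485547-110485846: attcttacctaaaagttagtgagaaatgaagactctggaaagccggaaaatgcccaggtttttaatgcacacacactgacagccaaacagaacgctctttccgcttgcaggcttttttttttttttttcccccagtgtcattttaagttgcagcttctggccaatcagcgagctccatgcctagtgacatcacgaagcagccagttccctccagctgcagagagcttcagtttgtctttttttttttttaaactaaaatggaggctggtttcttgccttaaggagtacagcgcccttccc

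The core AGGTCA was found in 3 of the 9 windows, among them both overlapping windows of Rnase10, which share 1 copy, and that of Cmtm7, which no peak covered. Of all 32851 promoter windows in the table, 16.3% held it. The longer TAGGTCA, which contains the core, was in 0 of the 9 windows and in 2.61% of all windows. A pair of AGGTCA copies in the same direction with 2 bases between them was in 0 of the 9 and in 0.00913% of all. CACGTG was in 1 of the 9, that of Rpa1, and in 7.15% of all. These counts describe the letters of the windows. The strongest peaks covered 1 of the 9 windows, that of 1700010I14Rik, and the sequence under their summits was not analysed here.

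The strongest ZT10 sites of the 9 genes had folds from 53.3 at Ppp2r5c to 103.0 at 1700010I14Rik. For comparison, the clock genes Arntl and Npas2 had sites of 89.84 and 77.73. The other 111 sites in the windows had a median fold of 7.08, close to the 6.81 of all ZT10 peaks. A fold of at least 30 was reached at 12 of the 120 sites, which are the 9 strongest and 1 more each near Gfod1, Rpa1 and Rnase10. Folds under 5 were found at 31 of the 120 sites, and the lower quartile of all ZT10 folds was 5.02. The plot of folds by gene shows the wide step below the top site at 1700010I14Rik and the nearly unbroken series at Rnase10.

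**Figure D1:**
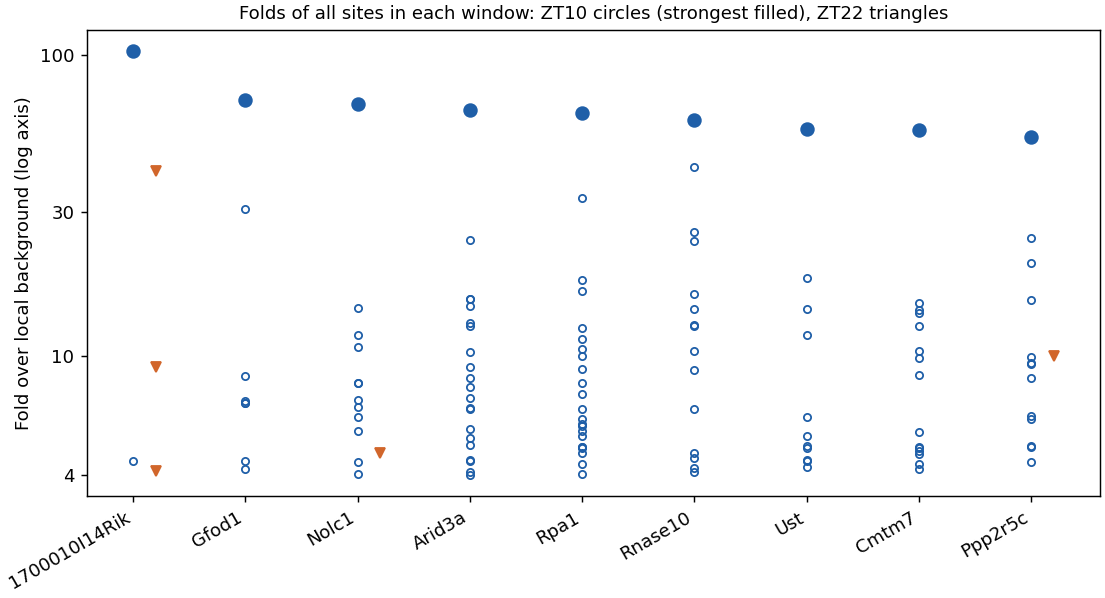
Fold over local background (log axis) of every site inside each gene or within 150 kb of it; circles are ZT10 sites, with the strongest filled, and triangles are ZT22 sites. The strongest ZT10 site is 103.0 at 1700010I14Rik and 53.3 at Ppp2r5c, and ZT22 sites are present for 3 of the 9 genes.

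At 7 of the 9 genes 1 site dominated, with a fold at least 2 times the next one in the window. This was so for 10.4% of the 16336 protein-coding genes with at least 2 summits in their window, a share from which nothing is read, since the genes were chosen by a high fold. Among the 108 genes whose strongest fold was at least 50, which include these 9 and neighbours that share their sites, the share was 63.9%. The ratio of the strongest fold to the next was 23.07 at 1700010I14Rik, the highest of all genes with 2 summits or more. It was 4.79 at Nolc1, 3.76 at Cmtm7, 3.12 at Ust, 2.72 at Arid3a, 2.31 at Gfod1 and 2.17 at Ppp2r5c. Rpa1 (1.91) and Rnase10 (1.43) fell short, and each had a second site of fold over 30. With a ratio of at least 3 required, 4 genes had a dominant site. Within 50 kb of the genes Ust lost its dominant site and Rpa1 gained one, and by −log10 q in place of the fold Rpa1 had one too.

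The windows differed widely in how many sites they held. The density was 6.25 ZT10 summits per Mb at 1700010I14Rik, at percentile 28.0 of all protein-coding genes, and 66.1 at Rpa1, at percentile 98.5. Arid3a had 64.0 per Mb (percentile 98.1), Rnase10 49.5 (92.7) and Cmtm7 46.1 (90.4). Nolc1 had 38.7 and Ppp2r5c 29.8, while Gfod1 (19.6) and Ust (17.9) were close to the median gene at 16.5. The windows also differ in how many genes they hold, from 0 other protein-coding genes at Ust and 1 at 1700010I14Rik to 16 at Rnase10 and 21 at Arid3a, and the part of gene content in the density was not tested.

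**Figure D2:**
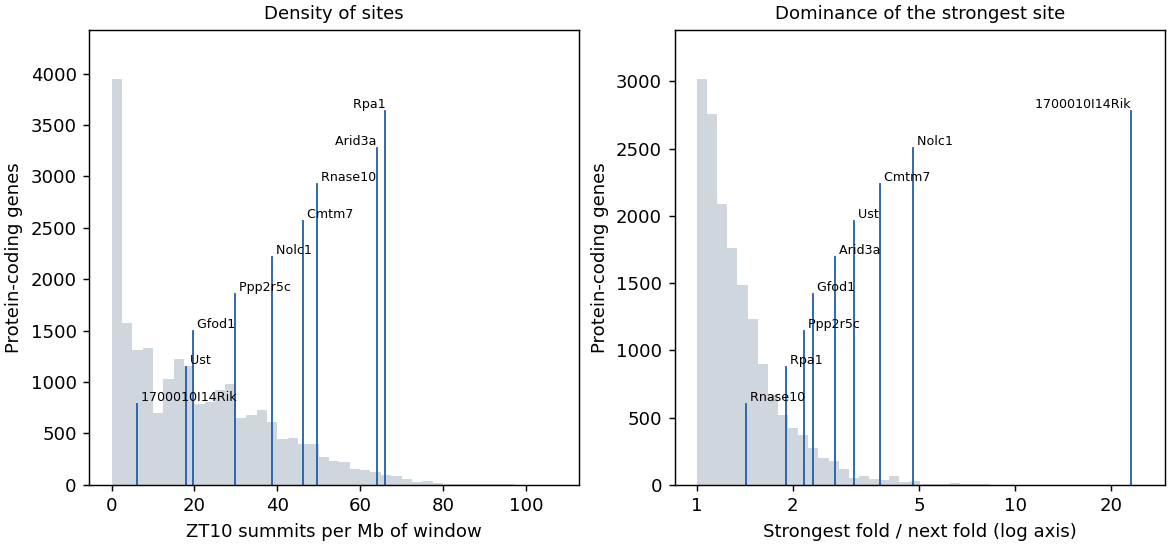
Grey histograms show all protein-coding genes by ZT10 summits per Mb of their window (left) and by the ratio of the strongest to the next fold on a log axis (right), with the 9 genes as blue lines whose height has no meaning. Site density spreads from 6.25 at 1700010I14Rik to 66.1 per Mb at Rpa1, and the ratio from 1.43 at Rnase10 to 23.07 at 1700010I14Rik.

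The strongest summit stood alone, with no other ZT10 summit within 10 kb, at 5 genes: 1700010I14Rik, Gfod1, Nolc1, Cmtm7 and Ppp2r5c. This was the case for 46.0% of all ZT10 peaks and for 53.0% of the 100 peaks of highest fold, so 5 of 9 is near the background. The gap to the nearest other summit ran from 5495 bp at Rnase10 to 35708 bp at 1700010I14Rik. At Nolc1 it was 10502 bp, just past the limit. With 20 kb required, only 1700010I14Rik and Gfod1 stood alone, and with 5 kb all 9 did.

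**Figure D3:**
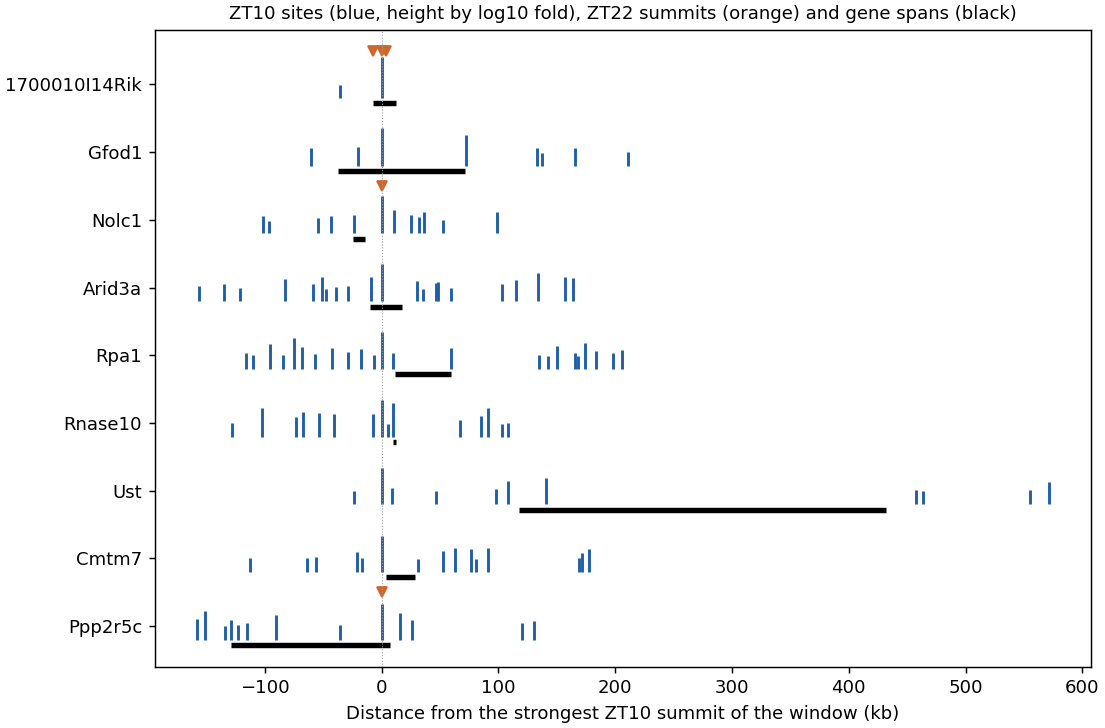
Each row is 1 gene, with its span in black, ZT10 summits as blue bars whose height follows the log10 fold, and ZT22 summits as orange triangles, placed by distance in kb from the strongest ZT10 summit. The row of 1700010I14Rik has 2 ZT10 sites and that of Rpa1 23.

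The strongest summit lay inside 4 of the genes (1700010I14Rik, Gfod1, Arid3a and Ppp2r5c) and outside the other 5. The share of all ZT10 summits that lie inside a gene was not computed, so nothing is read from these counts. Each of the 9 genes is the nearest protein-coding gene to its strongest site, which is how it was named, against 19.9% of all genes with a summit in their window. With genes of any kind considered, 7 were. The Rpa1 site then lay inside the locus Gm35117, and the Ust site was nearest to Gm30906, 88754 bp away. None of the 9 strongest summits lay within 1 kb of a listed start of any gene, while 22.5% of all ZT10 summits and 16.0% of the 100 strongest did. Of all 120 sites in the windows, 39 (32.5%) lay that close to a start. Starts of Gfod1 and Arid3a were not among those listed.

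1700010I14Rik had the second strongest ZT10 peak of the list, on chromosome 17 from 8987043 to 9000584, with a fold of 103.0 and 2239 fragments at the summit (95% interval 2147 to 2334). At 13542 bp the peak covered most of the 20000 bp gene and the promoter window shown above, with its summit 7313 bp after the start. The only other ZT10 site of the window lay inside Pde10a, a phosphodiesterase gene, with a fold of 4.47. This peak thus made up 91.2% of the length covered by ZT10 peaks there. At ZT22 the same interval held 3 separate peaks. The largest had a fold of 41.3 with its summit 15 bp from the ZT10 summit and was the widest of the ZT22 list at 8479 bp. The next, with a fold of 9.15, lay over the promoter window with its summit 137 bp from the start, and the weakest had 4.13.

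Gfod1 spans 108933 bp on chromosome 13 and had its strongest site inside the gene, from 43230776 to 43235076. The fold was 71.0, with 1542 fragments (1466 to 1621). With a width of 4301 bp this was the narrowest of the 9 strongest peaks. A second strong peak, with a fold of 30.8, had its summit 881 bp outside the higher end of the gene, 72512 bp from the first. A weaker site in the gene had 8.55. The other 5 sites lay nearest Tbc1d7 (6.99), Sirt5, a mitochondrial deacylase gene (7.08 and 4.19), Nol7 (6.95) and Ranbp9 (4.47).

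Nolc1 is a short gene of 9697 bp on chromosome 19, and its strongest site was not in it. The peak ran from 46085875 to 46106012 and so began just past the 3′ end of the gene at 46085543. Its summit lay 14454 bp beyond that end. The fold was 68.9, with 1495 fragments (1420 to 1573). At 20138 bp this was the widest of the 9 peaks and the 15th widest of all ZT10 peaks. Pprc1, which encodes a coactivator related to PGC-1, lay 27088 bp from the summit, and Elovl3, an elongase of very long fatty acids, 31900 bp. Nolc1 itself had a peak of fold 8.14 over its promoter window, with the summit 232 bp from the start. Toward Elovl3 the sites were weaker than the main one, with folds of 14.4 and 8.10 in the space before that gene, 6.25 inside it and 11.7 in Pitx3. Pprc1 had 7.13, and Gbf1, a gene of Golgi transport, had 10.7 inside it.

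Arid3a, on chromosome 10, had its strongest site inside the gene, from 79932598 to 79939258, with a fold of 65.9 and 1430 fragments (1357 to 1506). A second site in the gene, 8789 bp from the first, had a fold of 15.4. The window is dense, with 21 sites that together covered 20.1% of it. The strongest site outside the gene lay in Sbno2, 116340 bp from its end, with a fold of 24.3, and Sbno2 held a further 2 sites of 14.7 and 12.9, the latter 60 bp from its start. Elane, the neutrophil elastase gene, had 15.4 at 184 bp from its start. Ptbp1, a splicing regulator gene, had 12.6, and Gpx4, which encodes a peroxidase of lipid hydroperoxides, had 10.3.

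Rpa1, on chromosome 11, had its strongest site from 75286902 to 75293128, with the summit 11149 bp beyond the 3′ end of the gene. The fold was 64.2, with 1393 fragments (1321 to 1468). Rtn4rl1, a Nogo receptor family gene, lay 21341 bp from the summit on the other side. Rtn4rl1 had a site of fold 33.6 inside it and others of 16.4 and 11.4. The promoter window of Rpa1 shown above held the summit of a weaker peak, with a fold of 10.5, which also lay 111 bp from the start of Smyd4. The summit lies inside Smyd4 and 161 bp from the start of Rpa1, and which of these genes the peak belongs to cannot be told apart. No site lay inside Rpa1. Farther off, a peak of 17.9 lay 5166 bp from Tlcd2, and its summit was 1319 bp from the start of Mir22hg, the host of a microRNA, and Serpinf2, the α2-antiplasmin gene, had 12.4 at 129 bp from its start.

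Rnase10, on chromosome 14, had the least dominant site, upstream of the gene from 50995335 to 51000906, with a fold of 60.8 and 1319 fragments (1249 to 1392). Its summit lay 9394 bp before the outer start. The second site, 10160 bp away, covered the whole gene of 3011 bp and both promoter windows. It had a fold of 42.4, the 45th highest of all ZT10 peaks, and its summit lay 588 bp from the inner start. A weak peak of 4.10 lay between these sites, and one of 12.6 before them. Elsewhere in the window the secreted ribonuclease genes Rnase4 and Ang, which overlap, were nearest to a peak of 25.8 with a width of 12614 bp and to another of 10.4, at 1201 and 7431 bp. Klhl33 had 24.1, Pip4p1 16.0, Pnp, a purine nucleoside phosphorylase gene, 14.3, and Pnp2 12.7. At the Pip4p1 site the local background was 1.93 times the lowest of the list.

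Ust spans 314073 bp on chromosome 10. Its strongest site ran from 8084797 to 8090745, with the summit 117399 bp beyond the 3′ end of the gene. The fold was 56.9, over a local background 1.21 times the lowest, with 1441 fragments (1368 to 1517). By fragments it thus stood above Arid3a, Rpa1 and Rnase10, whose folds were higher, although its interval overlaps theirs. Tab2, an adaptor of inflammatory signalling, lay 131099 bp from the summit, only slightly farther than Ust. Inside Ust the single site had a fold of 18.2, and 1 of 14.3 lay 8821 bp outside its 3′ end. Beyond its other end a site of 11.7 lay 139862 bp away, nearer to Sash1. No peak covered the promoter window of Ust. Within 50 kb of the gene the site of 18.2 was the strongest.

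Cmtm7, on chromosome 9, had its strongest site from 114750868 to 114755740, with the summit 3596 bp beyond the 3′ end of the gene. The fold was 56.5, with 1225 fragments (1157 to 1296). Cmtm6, a neighbour of the same family, lay 3881 bp from the summit on the other side, so the site lies about as near to one gene as to the other. No site lay inside Cmtm7, and no peak covered its promoter window. A peak of 4.19 had its summit 2669 bp before the start. Cmtm8, another family gene of the window, was nearest to 4 sites of fold 10 or more. The strongest of these, and the second strongest of the window, had a fold of 15.0 and lay inside Cmtm8. Others inside it had 13.9 and 10.4, and 1 of 14.2 lay 216 bp outside it, by its start. Gpd1l, a relative of glycerol phosphate dehydrogenase, had 12.6, and Cmtm6 had 9.84 at 780 bp from its start.

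Ppp2r5c, on chromosome 12, had its strongest site near the 3′ end inside the gene, from 110571491 to 110580128, with a fold of 53.3 and 1156 fragments (1090 to 1225). It was also the gene with the most sites inside it, 5 of 13, and 10 of the 13 sites had it as the nearest protein-coding gene. At its inner start, shown above, a peak of fold 15.3 had its summit 29 bp from the start. At the lower end of the gene span a peak of 9.47 had its summit 268 bp outside, and it did not reach the outer promoter window. A site of 24.6 lay 22619 bp before the gene. Another of 20.4 lay 8554 bp beyond it, 255 bp from the start of B930059L03Rik and 9766 bp from Dync1h1, the dynein heavy chain gene.

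The strongest sites were wide, from 4301 to 20138 bp with a median of 6227 bp. All ZT10 peaks had a median width of 1679 bp, and the 100 of highest fold had 6748.5 bp, so the 9 were as wide as other strong peaks. Width and fold did not follow the same order among the 9. The narrowest, at Gfod1, had the second highest fold, and Nolc1, next in fold, was widest.

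**Figure D4:**
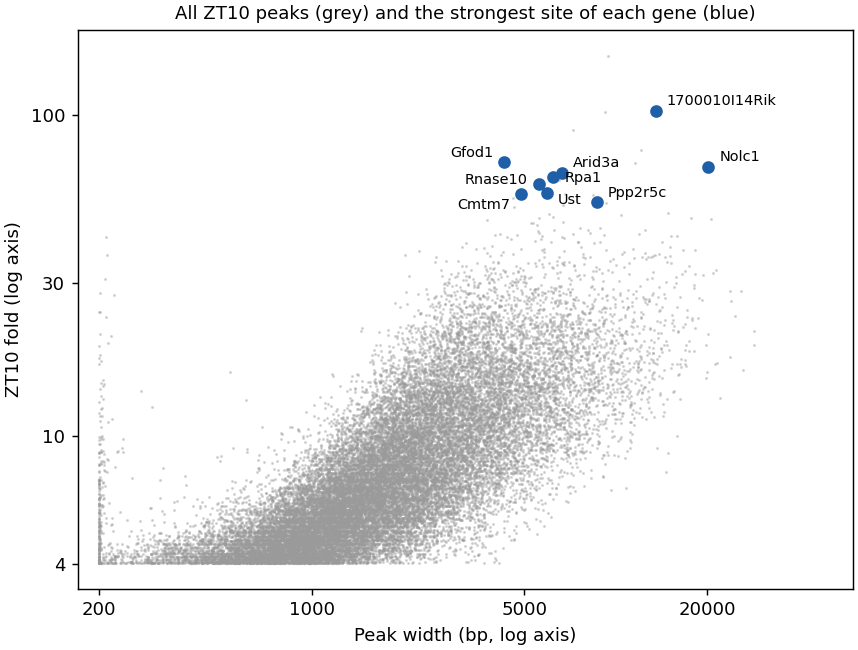
Width in bp and fold of all 27929 ZT10 peaks (grey, both axes log), with the strongest site of each of the 9 genes in blue. The 9 sites lie at folds of 53.3 to 103.0, with Gfod1 narrowest at 4301 bp and Nolc1 widest at 20138 bp.

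The second comparison asks which of these sites were also bound at ZT22, when REV-ERBα is low. A ZT22 peak overlapped the strongest ZT10 peak at 3 of the 9 genes, namely 1700010I14Rik, Ppp2r5c and Nolc1. Of all ZT10 peaks 0.0859% had one, and of the 100 of highest fold 14.0%. Since Ppp2r5c and 1700010I14Rik were chosen partly by their ZT22 fold, nothing is read from the count. All 5 ZT22 peaks in the windows lay on these 3 sites, and none of the other 111 ZT10 sites had one. The weakest peak of the ZT22 list had a fold of 4.08, so weaker signal at the other 6 genes would not be listed.

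At the shared sites the summits nearly coincided, 15 bp apart at 1700010I14Rik, 1 bp at Nolc1 and 0 bp at Ppp2r5c. Among the 24 ZT10 peaks of the whole list with a ZT22 peak, 20 had the summits within 100 bp. For the 3 genes the fragments at the ZT22 summit are given as a share of those at ZT10, with the local background not subtracted. At 1700010I14Rik the ZT22 summit held 868 fragments against 2239 at ZT10, or 40.0% (95% interval 36.9 to 43.3) once scaled to equal depth. At Ppp2r5c it held 207 against 1156, or 18.5% (15.8 to 21.4). At Nolc1 it held 96 against 1495, or 6.62% (5.33 to 8.14). These intervals do not overlap, but they cover counting error within 1 pool per time and leave out the spread between samples. The genes were also chosen by their fold at ZT10 or at ZT22, so no difference between them is read from these values.

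The ZT22 fold was 41.3 at 1700010I14Rik, 10.0 at Ppp2r5c and 4.74 at Nolc1. The ZT10 fold was 2.49 times the ZT22 value at 1700010I14Rik, 5.33 times at Ppp2r5c and 14.52 times at Nolc1. Over the 24 shared peaks, each set against its strongest ZT22 peak, this ratio ran from 0.75 to 14.52 with a median of 4.86. Nolc1 had the largest drop of these 24, and its ZT22 fold lay near the lowest of the list, 4.08. ZT10 peaks with no listed ZT22 peak, such as those of the other 6 genes, have no such ratio, and their drop could be larger. The strongest ZT22 peak was narrower than the ZT10 peak, with 62.6% of its width at 1700010I14Rik, 35.1% at Ppp2r5c and 2.81% at Nolc1. At Nolc1 a peak of 565 bp at ZT22 thus stood under a ZT10 domain of 20138 bp. The share at 1700010I14Rik leaves out the smaller ZT22 peaks of 1825 and 200 bp in the same interval. The part of the lower fold in the width was not tested.

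**Figure D5:**
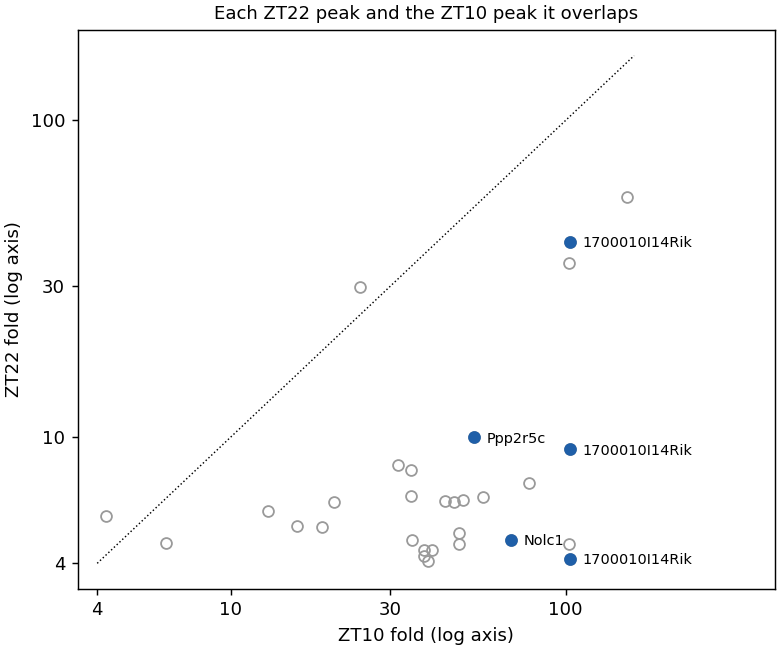
ZT22 fold against ZT10 fold (log axes) for each ZT22 peak and the ZT10 peak it overlaps, with those of 1700010I14Rik, Ppp2r5c and Nolc1 in blue, others in grey, and equal folds on the dotted line. All blue points lie below the line, nearest to it the main 1700010I14Rik peak at 103.0 and 41.3.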

How the data were processed

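Per the labels, 4 samples of each time were pooled for the deposited list of peaks. The other 37 samples of the series were not analysed here. Tools listed in the submitters' processing notes, without their roles, are MACS2 2.1.2, BWA 0.7.17, SAMtools 1.9, cutadapt 2.3, deepTools 3.3.0 and Picard 2.18.12, with the build mm10. Which control library was used is not given here by any label or header. The fold, a ratio of summit to local background, and the −log10 p and −log10 q are the deposited values of each peak. The deposited score, which equals the −log10 q multiplied by 10 and cut to a whole number, was not used.

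Fragments were solved from fold and −log10 p (pseudocount of 1, Poisson upper tail). They came within 0.1 of a whole number at all peaks on the lowest background, which are 87.1% of ZT10 and 72.2% of ZT22 peaks, and the method was tested on simulated data. Python 3.11.15, pandas 2.3.3, NumPy 2.4.6 and SciPy 1.17.1 were used. Gene spans and promoters came from RefSeq GRCm38.p6, which gives no exons. Distances run from a summit to a gene span. Named were the 9 genes, their ZT10 sites of fold 10 or more, their ZT22 sites and neighbouring genes. The members, limits and motifs were chosen with earlier results of these data known. No test was run. Alternatives were a 50 kb window, a −log10 q of at least 10, other limits for dominance, isolation and overlap, and genes of any kind.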

Additional observations from a re-analysis of the deposited data

How the results depend on the processing

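No paired analysis was possible because only pooled peaks were used, which carry no replicate number, and for that reason no sample could be left out in turn. A window of 50 kb kept 59 of the 120 sites, by construction, and 89 had a −log10 q of at least 10. By distance to genes of any kind 7 sites, not 9, were nearest to the named gene. Genes with a dominant site numbered 4 with a ratio of at least 3, against 7. They numbered 7 within 50 kb, with Rpa1 in place of Ust, 8 by −log10 q, with Rpa1 added, and the same 7 with a −log10 q of at least 10. Genes whose strongest summit stood alone numbered 2 at 20 kb and 9 at 5 kb, against 5, and 5 or 6 under the other alternatives. A ZT22 peak over the strongest site remained at 1 gene, 1700010I14Rik, when 50% of each peak had to be covered, at 2 with a −log10 q of at least 10, which removed the Nolc1 peak, and at 3 when summits had to lie within 100 bp. With 1 pooled list per time, the spread between samples is not known for any value here. The planned look at motifs under summits was not run, and neither exons nor sequence under the strongest sites were used.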
